A study of Mus musculus with 16 samples.

Results

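The genes described here are 34 genes that mark neurons of the cerebellum and hindbrain, measured in the inner ear of mice that carry a transgene for the miR-183 cluster. They were taken by symbol from a list of 35 genes, and the probeset with the highest mean over the 16 arrays stood for each gene. *Itpr1*, the remaining gene of the list, was not analysed here because the platform table gives it no probeset of its own. By role, 17 of the 34 are genes of granule cells, 10 of Purkinje cells and 4 of inhibitory transmission (interneurons), and 3 belong to other hindbrain or general neurons. They are 34 of 19937 genes that have a probeset of their own among 34760 probesets.

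Total RNA was hybridised to 1 MoGene 1.0 array per sample. The groups were organ of Corti microdissected at P5 (postnatal day 5) from homozygous transgenic (Tg/Tg, 5 arrays) and wild-type (WT, 5 arrays) mice, and cochlea collected at P18 (postnatal day 18) from Tg/Tg (3 arrays) and WT (3 arrays) mice. All mice were of the FVB/NCrl strain, the WT mice were littermates, and the Tg/Tg mice belonged to 1 transgenic line, in which the core promoter of human GFAP drives *Mir183*, *Mir96* and *Mir182*. That promoter was chosen for supporting cells of the ear, but it is active in glia of the brain as well. Because tissue and age change together, P18 against P5 is also cochlea against organ of Corti. The samples are named as biological replicates, and the sources do not say if animals were pooled for an array. On every P18 array both *Xist*, transcribed in females (8.96 to 9.36 on the log2 scale), and the Y-linked gene *Uty* (7.21 to 7.80) gave a signal, so the P18 p-values may not measure the spread between single animals. Grouping followed the sample names, since other label fields disagree with them in age, tissue and genotype.

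Granule cells are the small excitatory neurons of the cerebellum, and their axons, the parallel fibres, synapse on Purkinje cells, the inhibitory neurons that carry the output of the cerebellar cortex. Interneurons of the cerebellum and hindbrain release GABA or glycine. Several of the genes are not confined to the brain: *Neurod1* is also a gene of spiral ganglion neurons, the auditory neurons of the cochlea, and *Calb1* is also a gene of hair cells.

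Every signal below is a log2 value, so a difference of 1 is a 2-fold change. A level is read within 1 probeset across arrays, since different probesets do not share a scale. As a background level, the lower quartile of the array where that quartile was smallest was used, which is 4.54. Signals at or below that level may be held up by background, so a fall that ends there may be understated. The transgene was checked first: for probesets of *Mir183*, *Mir96* and *Mir182*, whose precursors it carries, all 8 Tg/Tg arrays were above all 8 WT arrays, and the smallest gap was between 7.77 and 5.46 for *Mir182*. The platform table gives that probeset to *Mir182*, while the authors name it *Mir96* and the other way round. Mature sequences of the main strands of the 3 miRNAs (RefSeq, GRCm38.p6) are given to show what was overexpressed, with the seed in capitals, bases 2 to 8, which pairs with target messages.

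miR-183-5p: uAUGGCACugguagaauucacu

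miR-96-5p: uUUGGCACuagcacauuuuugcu

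miR-182-5p: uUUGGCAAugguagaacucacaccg

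The seeds of miR-96 and miR-182 differ only in their last base, and those of miR-183 and miR-96 only in their first.

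At P18, 7 of the 34 genes were lower in Tg/Tg than in WT cochlea (limma, adjusted p under 0.05), which is 20.6% of them against 0.0604% of all probesets, and none was higher, against 0.383% of all probesets. Those 7 were 5 granule cell genes (*Gabra6*, *Neurod1*, *Cbln3*, *Zic1* and *Cbln1*), 1 Purkinje cell gene (*Rgs8*) and *Slc12a5*. Only 21 probesets in all were lower at P18, so that these genes made up 7 of 21. The list was drawn up with earlier results of these data known. These shares and the ranks below therefore describe the listed genes and are no test of them. *Gabra6* and *Neurod1* ranked 1 and 2 among all 34760 probesets by the size of the fall. Of the 5 probesets that were at least 2-fold lower (0.0144% of all), 3 were *Gabra6*, *Neurod1* and *Cbln3*. In RNA of a whole tissue, fewer cells of a type and less RNA per cell cannot be told apart. The count of 7 was 11 with a separate fit for P18, when 0.242% of all probesets were lower, and 13 with array weights, when 2.07% were.

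**Figure D1:**
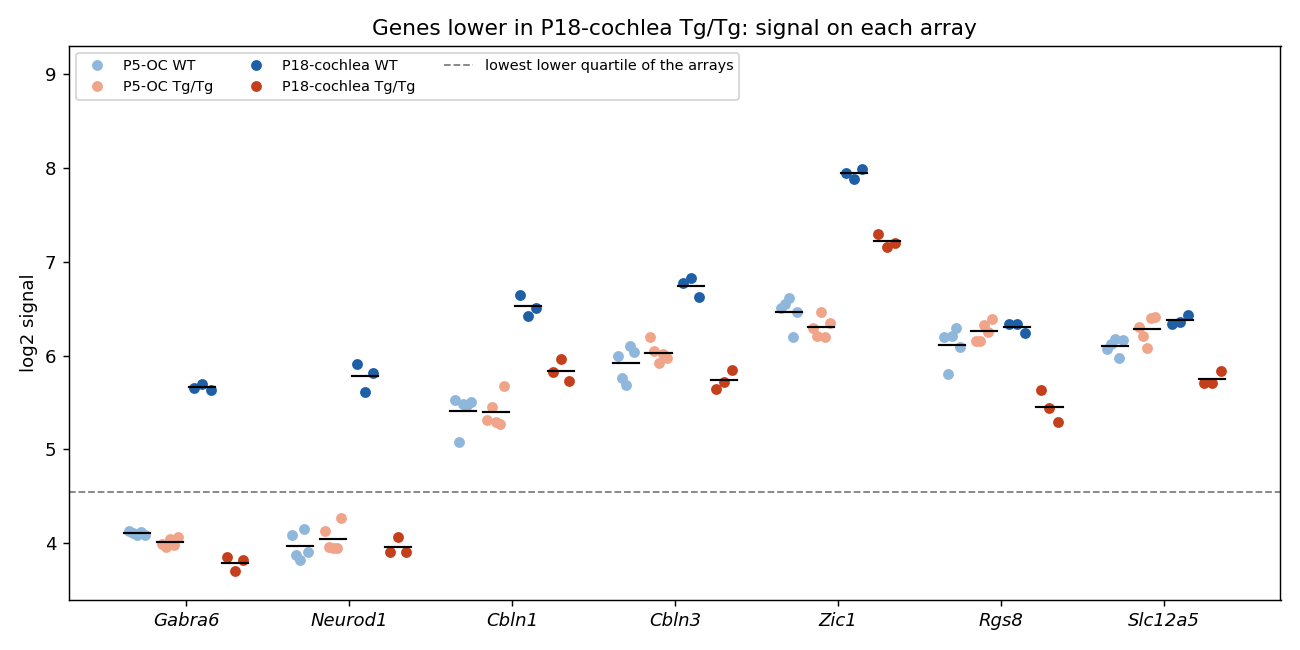
Log2 signal of the 7 genes lower in P18 Tg/Tg cochlea on each of the 16 arrays (points), with the mean of each group (bars) and the background level of 4.54 (dashed line). For each gene the 3 P18 Tg/Tg arrays lie below the 3 P18 WT arrays, and *Gabra6* and *Neurod1* cross the background level in P18 WT alone.

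*Gabra6* encodes a GABA-A receptor subunit of mature granule cells. Its signal was 3.86, 3.71 and 3.82 in P18 Tg/Tg and 5.65, 5.69 and 5.63 in P18 WT. At P5 it was 3.99, 3.96, 4.05, 3.98 and 4.07 in Tg/Tg and 4.14, 4.11, 4.09, 4.12 and 4.09 in WT. The P18 WT arrays thus stood apart from all others, while every other array was below the background level. The P18 log2 change was -1.87 (95% confidence interval -2.01 to -1.72, adjusted p = 2.8e-10), a signal 3.64-fold lower in Tg/Tg. At P5 all 5 Tg/Tg arrays were also below all 5 WT arrays, with a log2 change of -0.10, an adjusted p of 0.35 and both groups under the background level.

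*Neurod1*, a basic helix-loop-helix transcription factor of differentiating granule cells, followed the same pattern of levels. It read 3.90, 4.07 and 3.90 in P18 Tg/Tg against 5.91, 5.61 and 5.82 in P18 WT. At P5 the signals were 4.13, 3.96, 3.95, 3.95 and 4.26 in Tg/Tg and 4.09, 3.87, 3.82, 4.15 and 3.91 in WT, and these groups overlapped. No P18 Tg/Tg array came within 1 log2 unit of a WT array, and the change of -1.82 (interval -2.07 to -1.57, adjusted p = 2.1e-07) was a 3.53-fold lower signal. *Neurod2*, the related factor of the same family, was 5.73, 5.64 and 5.72 in P18 Tg/Tg and 6.18, 6.10 and 5.95 in WT. Its groups did not overlap, but the log2 change of -0.38 had an adjusted p of 0.38.

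The cerebellins are secreted proteins that hold parallel fibre synapses together. *Cbln3*, whose product pairs with that of *Cbln1* in granule cells, gave 5.64, 5.72 and 5.84 in P18 Tg/Tg and 6.77, 6.83 and 6.62 in WT. At P5 it gave 6.20, 6.04, 5.92, 6.01 and 5.98 in Tg/Tg and 5.99, 5.76, 5.69, 6.10 and 6.03 in WT. Only the P18 groups were apart, with a log2 change of -1.0 (interval -1.25 to -0.76, adjusted p = 2e-04). *Cbln1* itself was at 5.83, 5.96 and 5.72 in P18 Tg/Tg and 6.65, 6.42 and 6.51 in WT, and at 5.32, 5.45, 5.29, 5.27 and 5.68 and 5.52, 5.08, 5.48, 5.47 and 5.50 in P5 Tg/Tg and WT. Its P18 groups did not overlap and its P5 groups did. The P18 change of -0.69 (interval -0.97 to -0.41) had an adjusted p of 0.025, which rose to 0.052 to 0.16 when any 1 of the 6 P18 arrays was left out. *Cbln2*, another cerebellin that the list places with other neurons, lay near the background level in all groups and had a log2 change of -0.18 (adjusted p = 0.68).

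Promoter sequences are shown for the 3 genes that fell at least 2-fold at P18. They are the 250 bases before the start site, on the minus strand of each chromosome, 5′ to 3′ as transcribed, from RefSeq on GRCm38.p6. Capitals mark the core letters of sites for nuclear factor I, TTGGCA or TGCCAA on the other strand. Factors of this family act in granule cell maturation, and whether they bear on the falls was not tested.

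Gabra6 promoter (chr11:42321073-42321322): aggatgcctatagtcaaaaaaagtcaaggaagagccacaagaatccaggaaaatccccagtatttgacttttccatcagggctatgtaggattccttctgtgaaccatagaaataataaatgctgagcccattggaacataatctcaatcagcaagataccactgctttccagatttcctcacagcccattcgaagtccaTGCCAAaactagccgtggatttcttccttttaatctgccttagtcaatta

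Neurod1 promoter (chr2:79456637-79456886): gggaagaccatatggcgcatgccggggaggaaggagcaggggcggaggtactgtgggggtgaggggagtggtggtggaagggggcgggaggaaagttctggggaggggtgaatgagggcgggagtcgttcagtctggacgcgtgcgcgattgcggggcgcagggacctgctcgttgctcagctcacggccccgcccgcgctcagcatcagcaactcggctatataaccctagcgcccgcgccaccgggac

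Cbln3 promoter (chr14:55884257-55884506): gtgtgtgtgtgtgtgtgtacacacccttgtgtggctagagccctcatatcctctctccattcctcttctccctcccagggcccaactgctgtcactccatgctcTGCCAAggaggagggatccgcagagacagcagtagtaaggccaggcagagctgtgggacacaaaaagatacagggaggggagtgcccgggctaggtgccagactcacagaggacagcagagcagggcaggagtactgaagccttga

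These letters were found at base 201 of the *Gabra6* window and at base 105 of the *Cbln3* window, counted from 1 at the 5′ end, but not in the *Neurod1* window. Of 32841 promoter windows of this length 12.3% hold them. A second motif, the E-box CAGATG or CATCTG, which does not overlap the first and is read by factors of the *Neurod1* family, was in none of the 3 windows and in 14.4% of all windows. Promoter windows were available for 25 of the 35 listed genes, 34 windows in all. Of the 25 genes, 7 had the nuclear factor I letters in at least 1 window and 5 an E-box. Some genes have several windows, so these counts of genes cannot be set against the shares of windows above. The content of G and C was 40.8% for *Gabra6*, 67.6% for *Neurod1* and 57.6% for *Cbln3*, around a median of 52.4% over all windows.

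The Zic genes encode zinc finger factors of granule cell precursors, and 1 of the 4 passed. *Zic1* was 7.30, 7.16 and 7.20 in P18 Tg/Tg and 7.95, 7.88 and 7.99 in WT, and 6.30, 6.21, 6.46, 6.20 and 6.35 in P5 Tg/Tg and 6.51, 6.55, 6.62, 6.19 and 6.47 in P5 WT. The P18 groups were apart, all well above the background level, with a log2 change of -0.72 (interval -0.94 to -0.50, adjusted p = 0.0022). *Zic1* lies on chromosome 9, to which the transgene of this line was mapped, as do *Zic4* and *Rora*. Whether the insertion site bears on their levels was not tested. *Zic2* had a positive log2 change of 0.13, with Tg/Tg at 10.95, 10.94 and 11.02 and WT at 10.84, 10.88 and 10.80 (adjusted p = 0.72). *Zic5* was higher on every Tg/Tg array, at 9.44, 9.36 and 9.49 against 9.0, 8.96 and 8.90, and the difference of 0.48 did not pass (adjusted p = 0.11). The platform table gives *Zic5* a second probeset, with means of 7.62 in P18 Tg/Tg and 7.51 in WT, a difference of 0.11 (adjusted p = 0.93). For *Zic4* the 2 probesets had changes of -0.06 and -0.10, and the groups overlapped on the first. Positions of the probesets were not available. The values given for *Zic5* and *Zic4* may therefore come from a probeset that does not lie at the gene.

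Among the other granule cell genes none passed the test at P18. *Grm4*, the metabotropic glutamate receptor of parallel fibre terminals, came closest among those with lower signals, at 6.72, 6.71 and 6.82 in Tg/Tg and 7.25, 7.34 and 7.16 in WT. These groups did not overlap, and the log2 change was -0.50 (interval -0.85 to -0.15, adjusted p = 0.31). *Pax6*, the paired-box factor of granule precursors, and *Fat2*, an atypical cadherin of parallel fibres, also had every Tg/Tg array below every WT array, with changes of -0.22 and -0.11. *Camk4*, a calcium-dependent kinase, and *Cadps2*, which primes dense-core vesicles, had overlapping groups and changes of -0.08 and -0.20. Higher on every Tg/Tg array, without passing, were *Etv1*, an ETS factor of maturing granule cells (0.14, and 0.34 on its second probeset), the homeobox gene *Meis2* (0.22), and *Reln* (0.33), which encodes a secreted glycoprotein that guides Purkinje cell placement.

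Of the Purkinje cell genes 1 of 10 passed at P18, against 0.0604% of all probesets called lower, and 9 of 10 had a signal below WT on every Tg/Tg array, against 13.6%. *Rgs8*, which speeds up the switching-off of G proteins, was 5.64, 5.44 and 5.29 in P18 Tg/Tg and 6.33, 6.34 and 6.24 in WT. At P5 it was 6.16, 6.16, 6.33, 6.25 and 6.39 in Tg/Tg and 6.20, 5.81, 6.21, 6.29 and 6.09 in WT, with overlap. Unlike *Gabra6* and *Neurod1*, it read on the P18 WT arrays within the range of the P5 arrays, and only P18 Tg/Tg was low. The P18 log2 change was -0.85 (interval -1.10 to -0.59, adjusted p = 0.002), a 1.80-fold lower signal.

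*Car8*, a protein related to carbonic anhydrases that binds the inositol trisphosphate receptor, had 5.93, 5.65 and 5.50 in P18 Tg/Tg and 6.07, 6.49 and 6.28 in WT, a log2 change of -0.58 (interval -0.94 to -0.23, adjusted p = 0.21). *Pcp2*, a modulator of G proteins known chiefly from Purkinje and retinal bipolar cells, had 5.82, 5.75 and 5.75 in Tg/Tg and 6.16, 6.21 and 6.22 in WT, a change of -0.42 (interval -0.64 to -0.21, adjusted p = 0.098). *Slc1a6*, the glutamate transporter of Purkinje cells, had 5.24, 5.35 and 5.34 and 5.72, 5.78 and 5.63, a change of -0.40 (interval -0.72 to -0.08, adjusted p = 0.4). For all of these genes the P18 groups were apart while the adjusted p missed the threshold. The same held for the calcium buffer *Calb1* (-0.39), the calmodulin-binding *Pcp4* (-0.25), the LIM homeobox genes *Lhx1* (-0.17) and *Lhx5* (-0.15), and the phosphatase inhibitor *Ppp1r17* (-0.16), with adjusted p-values of 0.64 to 0.95. *Rora*, the nuclear receptor needed for Purkinje cell maturation, was the exception, at 9.02, 9.08 and 9.04 in Tg/Tg and 8.77, 8.83 and 8.81 in WT. It was higher on every Tg/Tg array, by 0.24 (adjusted p = 0.46). For *Calb1* and *Ppp1r17* the standard deviation was 0.47 and 0.56 in P5 Tg/Tg, against 0.05 and 0.11 in P18 Tg/Tg. This P5 spread entered their P18 p-values.

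None of the 4 genes of inhibitory transmission passed at P18, and 1 had an unadjusted p under 0.05. *Gad2*, which makes GABA, was 4.51, 4.53 and 4.52 in Tg/Tg, just under the background level, and 4.80, 4.60 and 4.81 in WT, without overlap. Its log2 change was -0.22 (interval -0.41 to -0.02, adjusted p = 0.5). *Gad1*, the other enzyme of GABA synthesis, was 6.74, 6.57 and 6.71 in Tg/Tg and 6.88, 7.01 and 6.89 in WT, again without overlap, with a change of -0.25 (interval -0.89 to 0.39, adjusted p = 0.91). Its standard deviation in Tg/Tg and WT was 0.09 and 0.07 at P18 but 0.57 and 0.41 at P5. The fit pools the spread of all 4 groups, so this interval rests largely on the P5 arrays. The vesicular transporter *Slc32a1*, which loads GABA and glycine, and the glycine transporter *Slc6a5* overlapped between genotypes, with changes of -0.02 (interval -0.33 to 0.29) and -0.07 (interval -0.43 to 0.29). For *Gad1* a fall of 2-fold lies outside the interval. *Gad2* and *Slc6a5* already lay in WT below 5.29, the 95th percentile over 1208 probesets of olfactory and vomeronasal receptors. *Slc32a1* lay just above it. A fall of these genes may have been understated, and their intervals hold for the signal alone. Since probesets do not share a scale, how far each of them could fall is not known.

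*Slc12a5* encodes the potassium-chloride cotransporter that keeps chloride low in mature central neurons. It was 5.71, 5.71 and 5.83 in P18 Tg/Tg and 6.33, 6.36 and 6.43 in WT, and 6.31, 6.21, 6.08, 6.40 and 6.41 in P5 Tg/Tg and 6.07, 6.13, 6.17, 5.97 and 6.17 in P5 WT. Only P18 Tg/Tg was below the other groups, with a log2 change of -0.63 (interval -0.82 to -0.43, adjusted p = 0.0033). *Barhl2*, a homeobox factor of hindbrain and spinal neurons, had every P18 Tg/Tg array below every WT array and a change of -0.29 (adjusted p = 0.41).

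**Figure D2:**
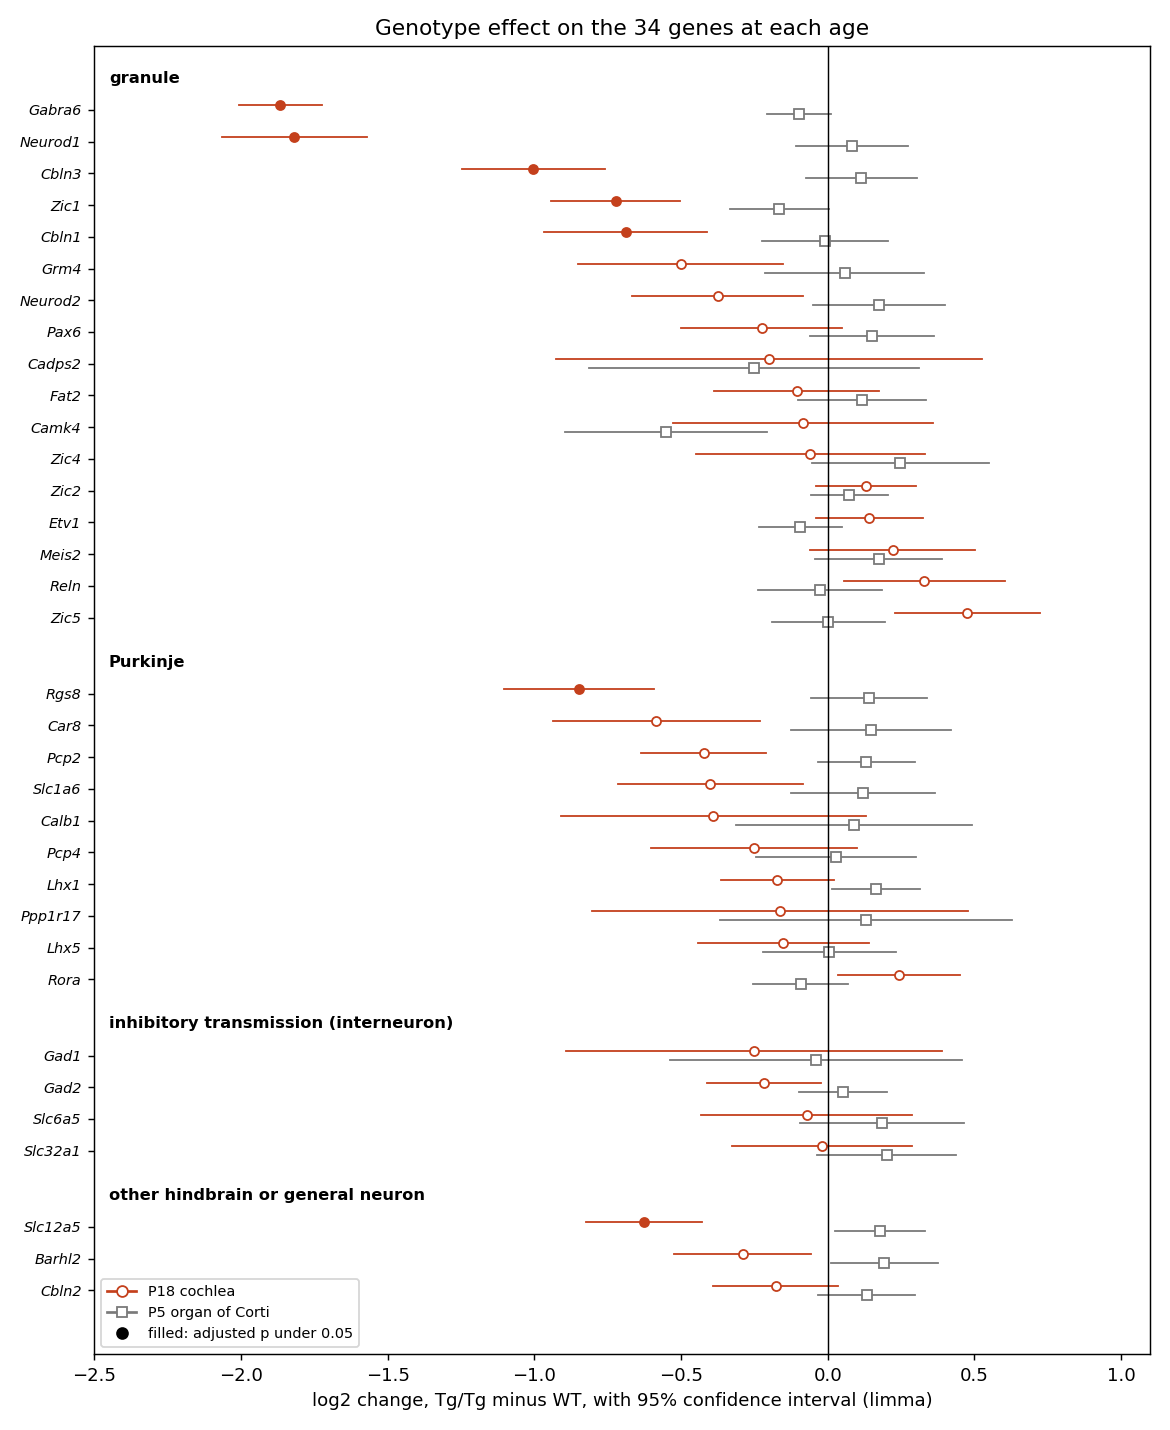
Log2 change between Tg/Tg and WT (horizontal axis) of each of the 34 genes at P18 (circles) and P5 (squares), with 95% confidence intervals, ordered by role and by the P18 change. Filled symbols passed at an adjusted p under 0.05: 7 at P18 and none at P5.

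The changes furthest from 0 were those of granule cell genes, while the role medians were all negative and within 0.18 of each other. The median log2 change at P18 was -0.20 over the 17 granule cell genes, -0.32 over the 10 Purkinje cell genes, -0.14 over the 4 genes of inhibitory transmission and -0.29 over the remaining 3, against -0.02 over all probesets. Granule cell genes ranged from -1.87 to 0.48, and 12 of 17 were negative; Purkinje cell genes ranged from -0.85 to 0.24, and 9 of 10 were negative; genes of inhibitory transmission ranged from -0.25 to -0.02, and 4 of 4 were negative. Whether the roles differ was not tested. Taken over all 34, 23 genes had every Tg/Tg array below every WT array, against 13.6% of all probesets, and 6 had every Tg/Tg array above, against 14% of all probesets. Other lists of neuron genes, given below, also held such genes.

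**Figure D3:**
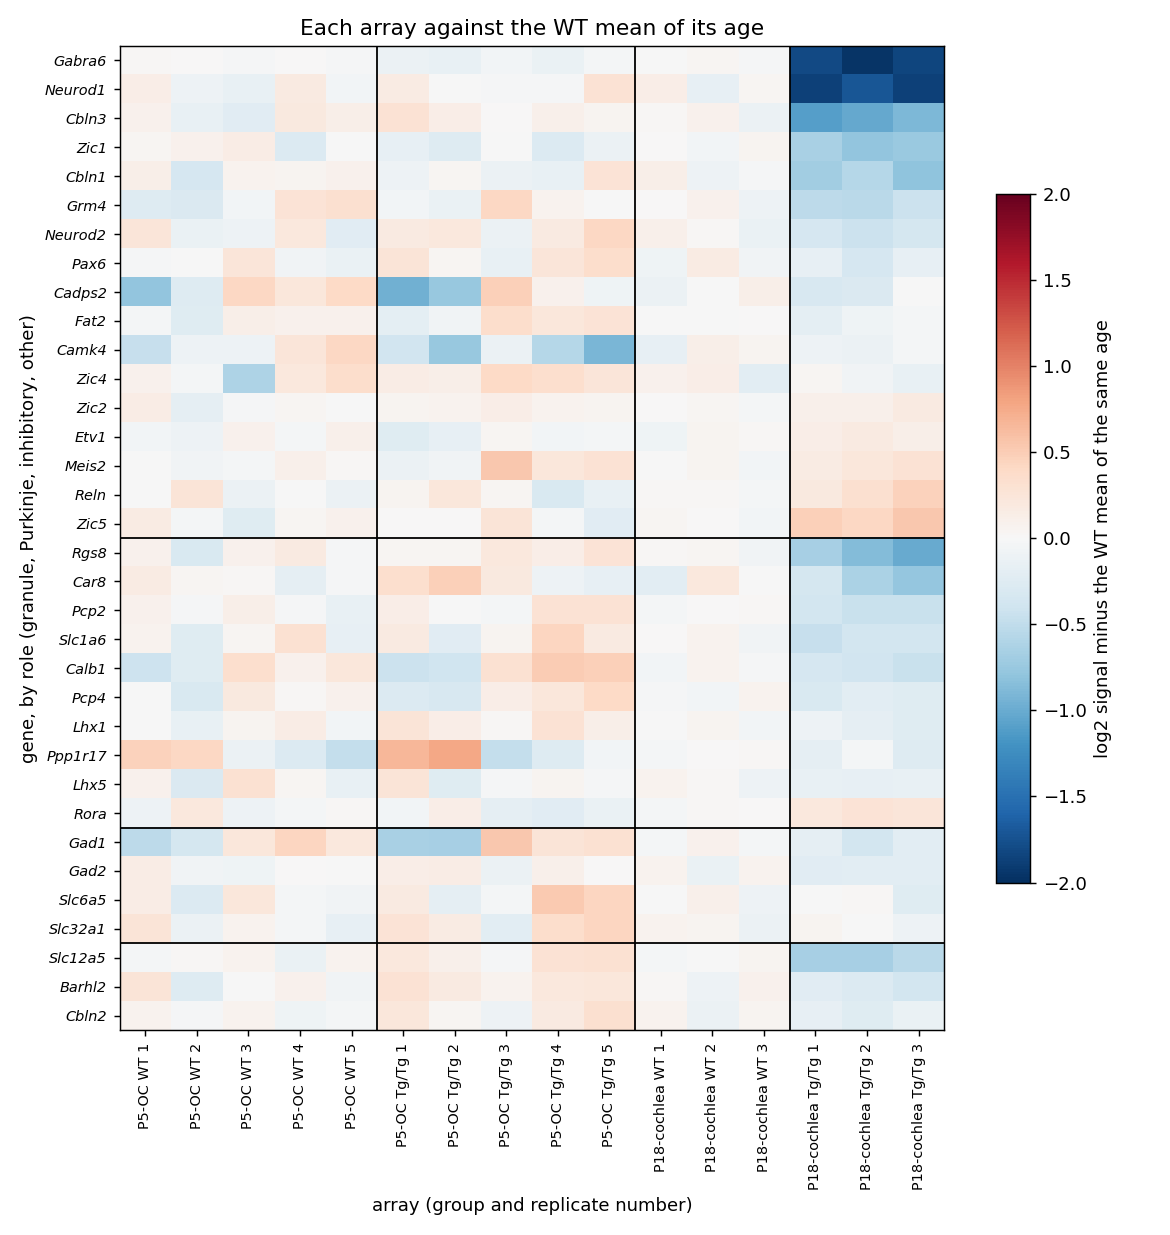
Log2 signal of each gene (rows, by role) on each array (columns) minus the WT mean of the same age, from -2 (blue) to 2 (red). The 3 P18 Tg/Tg columns are alike and mostly blue, with *Zic5*, *Reln*, *Rora* and *Meis2* red; in the P5 columns *Cadps2*, *Calb1*, *Gad1* and *Ppp1r17* vary between replicates of both genotypes.

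The P18 Tg/Tg arrays were alike. Within this group each of the 3 arrays was the lowest for 11 or 12 of the 34 genes. The mean over the granule cell genes was 6.73, 6.73 and 6.79 on the Tg/Tg arrays and 7.13, 7.15 and 7.09 on the WT arrays. Over the Purkinje cell genes it was 6.45, 6.43 and 6.35 in Tg/Tg and 6.70, 6.77 and 6.71 in WT. These groups of means did not overlap at P18.

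At P5 none of the 34 genes passed in either direction, while 0.549% of all probesets were lower and 0.0604% higher in Tg/Tg. Of the 34, 4 (11.8%) had an unadjusted p under 0.05, against 16.4% of all probesets. The median log2 change was 0.10 and 25 were positive, against -0.01 and 46.7% over all probesets, but probesets with a mean signal from 4 to 5 had a median of 0.06 and those from 5 to 6 one of 0.09. The smallest p belonged to *Camk4*, with 7.46, 7.08, 7.73, 7.28 and 6.92 in Tg/Tg and 7.39, 7.74, 7.75, 8.09 and 8.27 in WT. These groups overlapped, and the log2 change was -0.55 (adjusted p = 0.16). *Camk4* passed without Tg/Tg replicate 3 (adjusted p = 0.024), when *Slc12a5* also passed as higher (0.23, adjusted p = 0.047), and without WT replicate 1 (adjusted p = 0.043). Without the first of these arrays 8.36% of all probesets passed in either direction, more than the 5.88% of the 34 genes, and without the other 1.71% did, against 2.94% of the 34 genes. For 8 of the 34 genes replicates 1 and 2 of both genotypes stood apart from replicates 3 to 5, against 4.92% of all probesets. The difference was 0.94 for *Cadps2*, 0.87 for *Gad1* and 0.69 for *Calb1*, lower in replicates 1 and 2, and -0.86 for *Ppp1r17*, higher there. With this split as a term, chosen after seeing the data, still none passed at P5.

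The genotype effect itself differed between P18 cochlea and P5 organ of Corti for 5 genes (limma interaction, adjusted p under 0.05), each more negative at P18, against 0.0547% of all probesets, and for none in the higher direction, against 0.541%. The difference of the 2 effects was -1.90 for *Neurod1*, -1.77 for *Gabra6*, -1.12 for *Cbln3*, -0.99 for *Rgs8* and -0.80 for *Slc12a5*, with adjusted p-values of 2e-08 for *Gabra6* to 0.0039 for *Rgs8*. For *Zic1* and *Cbln1*, which passed at P18, the difference was -0.56 (adjusted p = 0.072) and -0.68 (adjusted p = 0.086). Since both *Gabra6* and *Neurod1* were below the background level in both genotypes at P5, a fall of either could hardly have been seen there. In either direction the effect differed for 0.596% of all probesets. The count of 5 was 15 with array weights, against 9.3% of all probesets, and 8 with only the probesets of 1 symbol tested, against 1.78% of these.

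Between P5 organ of Corti and P18 cochlea of WT mice, 12 genes were higher at P18, against 19.8% of all probesets, and 7 were lower, against 30.2%. The higher genes were led by *Neurod1* (1.81), *Gabra6* (1.55), *Zic1* (1.47), *Cbln1* (1.12), *Meis2* (1.02) and *Cbln3* (0.82), and 10 of the 12 were granule cell genes. Of the 12, *Neurod2* did not pass without P18 WT replicate 1 or 2, *Lhx1* without replicate 2, *Slc12a5* without replicate 3, and *Pax6* without any 1 of 7 WT arrays, those of P18 and replicates 1, 2, 4 and 5 of P5 (highest adjusted p 0.19). The lower genes were *Calb1* (-1.79), *Cadps2* (-1.57), *Camk4* (-1.02), *Zic4* (-0.91, but 0.21 on its second probeset), *Rora* (-0.85), *Etv1* (-0.80) and *Zic5* (-0.56, and -0.29 on its second probeset). Of the 10 Purkinje cell genes only *Lhx1* was higher (0.27, adjusted p = 0.012) as deposited. In Tg/Tg mice 5 genes were higher at P18, against 21.1% of all probesets, namely *Meis2*, *Reln*, *Zic1*, *Cbln1* and *Fat2*, and 15 were lower, against 33%. *Gabra6* was among the lower genes there (-0.21) as deposited but not under either rescaling, and *Neurod1* differed by -0.09. The scaling of the arrays moves these counts: with each array centred on its median the split was 19 higher and 7 lower in WT, against 34.3% and 21.3% of all probesets, and 6 and 8 in Tg/Tg, against 34.3% and 19.7%. With quantile normalization repeated it was 20 and 8 in WT, against 32.3% and 25.3%, and 9 and 8 in Tg/Tg, against 28.6% and 24.1%. The calls over all probesets moved in the same direction, except that lower calls in WT became fewer while the lower genes stayed at 7 or rose to 8. The median over all probesets was -0.06 in WT and -0.11 in Tg/Tg as deposited, and 0.13 and 0.11 after centring.

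Few of the genes lay at background. At or below 4.54 were *Gabra6*, *Neurod1* and *Gad2* in P18 Tg/Tg, none of the 34 in P18 WT, and *Gabra6* and *Neurod1* in either P5 group. By the stricter level of 5.29 from the receptor probesets, 7 genes were at background in P18 WT: *Zic4*, *Pax6*, *Lhx5*, *Ppp1r17*, *Gad2*, *Slc6a5* and *Cbln2*. In P18 Tg/Tg *Gabra6* and *Neurod1* joined these 7, making 9. All 4 groups therefore gave low signals for the Purkinje cell genes *Lhx5* and *Ppp1r17* and for the interneuron genes *Gad2* and *Slc6a5*, and of the 7 genes that passed at P18 none was under that level in WT.

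Genes of other lists were read in the same fit to see what else moved at P18. Among 25 further granule cell genes 1 was lower, against 0.0604% of all probesets: *Kcnd2*, a potassium channel subunit, with 5.60 to 5.66 in Tg/Tg and 6.21 to 6.33 in WT (log2 change -0.63, adjusted p = 0.01), and the median was -0.13. *Cdh15* (-0.32), *Gabrd* (-0.41) and *Nrgn* (-0.40) did not pass, and *Mef2c* had the largest change the other way (0.24). Of 16 further Purkinje cell genes 1 was lower, *Arhgef33*, with 5.13 to 5.33 in Tg/Tg and 6.18 to 6.19 in WT (-0.94, adjusted p = 0.0015), and the median was -0.16; *Gng13* had a change of -0.42 and *Ebf2* of 0.27, neither passing. None of 13 further inhibitory interneuron genes passed (median -0.04). The 6 genes of the midbrain-hindbrain boundary had a median of -0.16, with *En2* at -0.45 (adjusted p = 0.21), and the 12 hindbrain Hox genes one of -0.14, with all 12 negative and none passing. Over all probesets 55.4% were negative, and over the receptor probesets, which give low signals, 70.9%. General neuron genes had a median of -0.12 at P18 and of -0.35 at P5 (18 genes, none passing), and spiral ganglion neuron genes one of 0.03 at P18 (13 genes, none passing). Of the 18 general neuron genes 14 were negative at P18. For 9 of these 18 every P18 Tg/Tg array was below every WT array, against 13.6% of all probesets, and for 1 above, against 14%. The same counts were 10 and 2 of the 25 further granule cell genes and 8 and 3 of the 16 further Purkinje cell genes. They were 4 and 0 of the 6 boundary genes, 5 and 0 of the 12 Hox genes, and 0 and 5 of the 13 spiral ganglion genes.

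Cells that could lie beside hindbrain neurons in a sample were read through marker lists, whose genes may also be expressed in the cochlea. Over 13 genes of astrocytes and Bergmann glia the mean was 8.56 to 8.62 on the P18 Tg/Tg arrays and 8.46 to 8.48 on the WT arrays, and *Fabp7*, a fatty acid binding protein of these glia, was the 1 gene that passed, as higher (0.94, adjusted p = 1.3e-05). The median change over the 13 genes was 0.08, with 7 positive and 6 negative. *Gfap*, the defining astrocyte marker, read 8.33 to 8.52 in P18 Tg/Tg and 8.26 to 8.67 in P18 WT. None of 13 oligodendrocyte genes passed (median 0.07). Of 7 choroid plexus genes none passed. *Ttr*, the transthyretin gene, was 8.15 to 8.23 in Tg/Tg and 9.17 to 9.28 in WT (-1.02, adjusted p = 0.15). These groups did not overlap, with standard deviations of 0.04 and 0.06. The standard error of 0.27 in the fit also holds the spread of the P5 arrays. Hair cell genes had a median of -0.07 (14 genes, none passing) and genes of cochlear supporting cells and the tectorial membrane one of 0.11 (12 genes, none passing). Fast skeletal muscle genes were higher for 11 of 12 genes, against 0.383% of all probesets, with a median of 2.13 and a mean of 8.91 to 8.97 in Tg/Tg against 6.69 to 6.71 in WT, so every P18 Tg/Tg array stood above every WT array. The part of these differences in the fall of the granule and Purkinje cell genes was not tested.

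**Figure D4:**
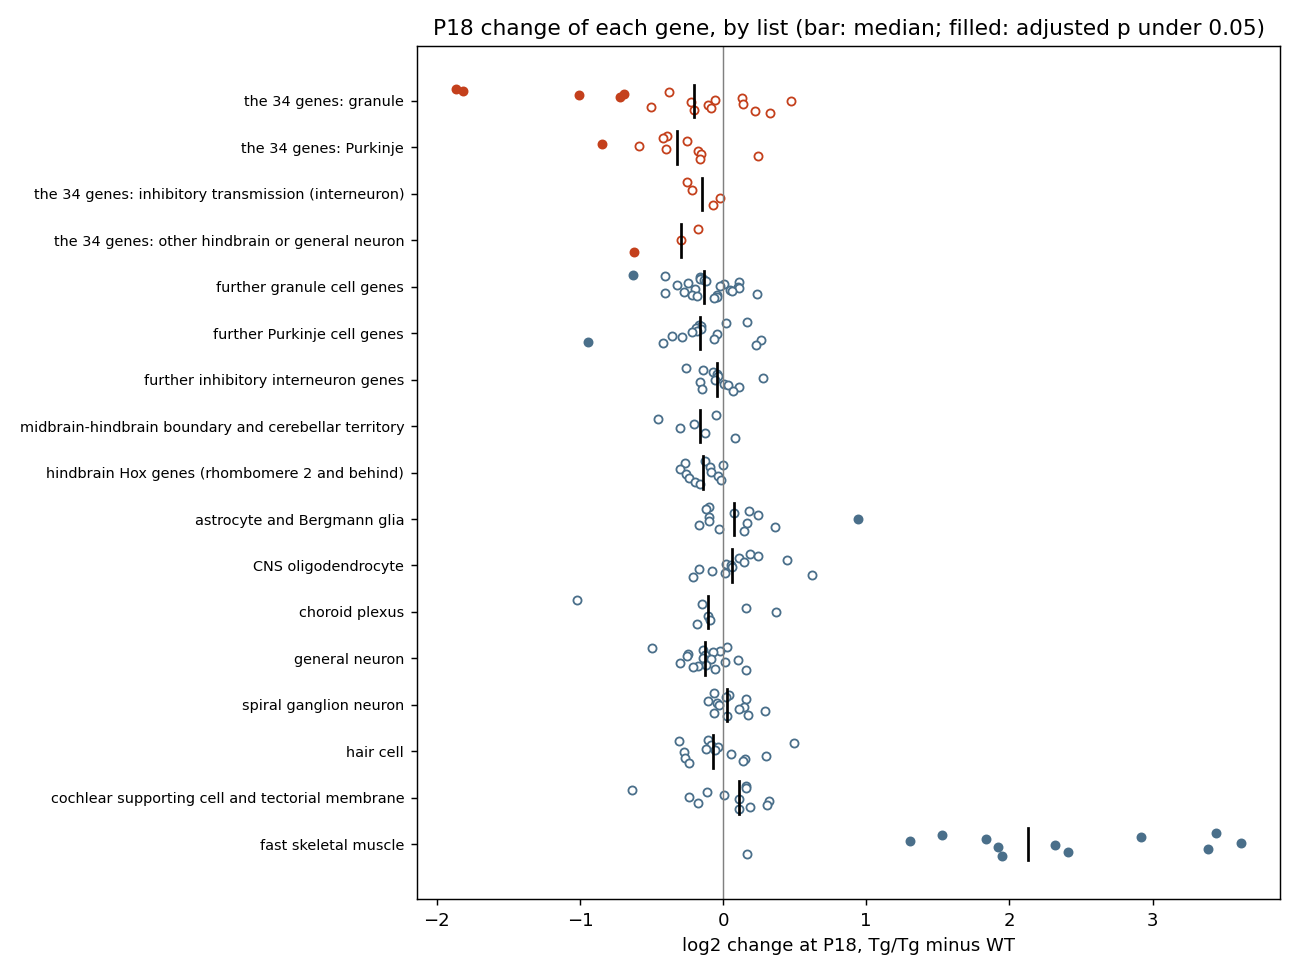
Log2 change at P18 (Tg/Tg minus WT, horizontal axis) of each gene in the 4 roles (red) and in 13 other lists (blue), with the median of each list (bar); filled points passed at an adjusted p under 0.05. The granule cell genes hold the points furthest to the left, at -1.87 and -1.82, and the fast skeletal muscle genes those furthest to the right.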

How the data were processed

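The authors deposited log2 signals of 34760 probesets on 16 arrays, already normalized. How they corrected the background, normalized and summarised the probes is not given in the sources used here, and the labels name limma. The values were used as deposited. Probesets were named from the platform table, which gives 21640 of them 1 symbol, 1321 several and 11799 none, and several-symbol probesets named no gene.

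All 16 arrays entered 1 fit with 4 group means with lmFit and eBayes of limma 3.58.1 under R 4.3.3, which left 12 residual degrees of freedom and added 3.23. The 4 groups shared 1 estimate of the spread of a gene. Where the P5 arrays varied more than the P18 arrays, P18 intervals may be wider and p-values larger than the P18 arrays alone would give. Two-sided p-values were adjusted by Benjamini and Hochberg over all probesets within each contrast. A gene passed at an adjusted p under 0.05. The fit was checked on simulated data. The genes, roles and other lists were chosen with earlier results of these data known, so their counts are descriptions. All 34 genes are named, and of another list up to 4 genes with the smallest adjusted p at P18 and the largest change the other way. Intervals are 95% confidence intervals from limma. The number of arrays limits the precision. Alternatives were a replicate block, separate fits, filters, scalings, variance models, array weights and each array left out. Promoter and miRNA sequences are from RefSeq. Plots were drawn with matplotlib 3.10.9 under Python 3.11.15.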

Additional observations from a re-analysis of the deposited data

Results flagged for a closer look

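The genotype effect differed between P18 cochlea and P5 organ of Corti in the interaction test of limma for *Gabra6* (difference of the log2 changes -1.77), *Neurod1* (-1.90), *Cbln3* (-1.12), *Rgs8* (-0.99) and *Slc12a5* (-0.80). Tissue and age cannot be told apart in these differences. In 2 of 68 groups of 5 arrays 1 array lay far from the others: P5-OC WT replicate 2 for *Cbln1*, at 5.08, and P5-OC Tg/Tg replicate 3 for *Zic2*, at 11.06. Chance gives such an array in about 1 of 20 groups.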

How the results depend on the processing

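The count of genes lower at P18, 7 of 34 as reported, was 11 with a separate fit per age (0.242% of all probesets) and 13 with array weights (2.07%). It was 1 with only probesets above the median signal, when 14 of the 34 genes remained in the test and 9 probesets in all passed. With the mean of all probesets of a gene it was 8, when 28 of 19937 genes passed. It was 6 to 7 with each array left out. With the replicate block it was 5, without *Cbln1* (adjusted p = 0.11) and *Slc12a5* (adjusted p = 0.056). At P18, deviations from the group means correlated at 0.07, 4e-04 and 0.01 between Tg/Tg and WT arrays of the same replicate number. At P5 the correlations were 0.29 and 0.36 for replicates 1 and 2, and -0.11, 0.20 and -0.22 for replicates 3 to 5. *Gabra6*, *Neurod1*, *Cbln3*, *Zic1* and *Rgs8* passed under every alternative that tested them. Genes that passed at P18 only under another setting were *Pcp2* (separate fits, array weights and the mean of all probesets), *Grm4* and *Slc1a6* (separate fits and array weights), *Calb1* (separate fits), and *Neurod2*, *Car8* and *Barhl2* (array weights). At P5 the count of 0 was 1 with array weights (*Camk4*, against 4.93% of all probesets), 0 to 2 with each array left out, and 0 with the level of Y-linked genes as a covariate and under the other alternatives.

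The effect differed between the ages for 5 genes as reported, and for 1 above the median signal (*Zic1*), when 291 probesets in all passed. It differed for 8 with named probesets only (1.78% of these) and for 8 with the mean of all probesets, when 378 of 19937 genes passed. The count was 15 with array weights (9.3% of all probesets) and 5 to 6 with each array left out. The count of genes higher in P18 than in P5 WT, 12 as reported, was 4 of 14 above the median signal, when 5083 probesets in all passed. It was 20 with quantile normalization repeated (32.3% of all probesets), 19 with each array centred (34.3%), and 9 to 12 with each array left out (17% to 20.7%). This comparison admits no replicate block and no separate fits, since each such block or fit holds 1 age. Over the granule cell genes the median P18 change was -0.20 as reported, 0.0232 above the median signal, -0.17 with quantile normalization, and -0.26 to -0.14 with each array left out. Over the Purkinje cell genes it was -0.25 above the median signal, and for *Gad1*, the 1 gene of inhibitory transmission there, -0.25. At the receptor level 9, 7, 8 and 8 genes, and at the median of each array 21, 17, 20 and 20 genes, were at background in P18 Tg/Tg, P18 WT, P5 Tg/Tg and P5 WT, against 3, 0, 2 and 2 as reported. The number of P18 arrays, 3 a group, and signals near background limit what could be detected.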
